A study of Mus musculus with 20 samples.

Results

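The genes described here are 8 enzymes, carriers and regulators through which the liver takes up, stores, burns and makes sugar: G6pc, Pck1, Fbp1, Gckr, Pklr, Khk, Slc2a2 and Gys2. They were picked by symbol from the 50559 genes of the count table, all 8 were found, and all 8 passed the filter on low counts in every comparison. Hepatic sugar handling is a set of opposed reactions. After a meal, glucose enters the hepatocyte, is phosphorylated and runs through glycolysis to pyruvate or into glycogen, whereas in fasting pyruvate and other precursors are turned back into glucose by a few enzymes that bypass the irreversible glycolytic steps. Fructose enters below the main control step of glycolysis, which is why a fructose-rich diet loads this tissue in particular, and several of these genes are switched on by sugar through the transcription factor ChREBP (gene Mlxipl) and held down or raised by insulin and glucagon.

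RNA was sequenced from 20 mouse livers in 4 groups of 5. All mice carried the floxed Cideb allele (cidebfl/fl), so the control livers carry it too. Those called WT were injected with AAV-TBG-GFP and those called KO with AAV-TBG-Cre, a virus that expresses Cre from the hepatocyte-specific TBG promoter, so that Cideb, which encodes a lipid droplet protein, is deleted in hepatocytes and not in the other liver cells. Each vector was given to mice on Western diet (WD) and to mice on a choline-deficient high-fat diet (CDA-HFD). WD is rich in sugar, fat and cholesterol, and the paper combines it with fructose and glucose in the drinking water. CDA-HFD supplies amino acids in place of protein, and the paper's methods describe it as deficient in methionine too. No group was on chow, so a fall on CDA-HFD and a rise on WD cannot be told apart. The labels give 3 months of feeding for both diets and no age, while the paper describes a longer feeding on WD than on CDA-HFD for mice with hepatocyte deletion. Each diet was given to its own mice, and diet, cohort and feeding time cannot be told apart in any comparison of WD with CDA-HFD. Nothing in the labels says more of the 5 livers of a group than that they are separate samples, so p-values measure the spread between them.

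Reads on genes ran from 11697049 to 16827147 per liver. The targeted gene checked the labels: Cideb lay between 4.78 and 7.57 CPM (read counts scaled to a common library size) in WT livers on WD and between 0 and 0.389 CPM in KO livers, and between 2.22 and 3.83 CPM in WT livers and 0 and 0.399 CPM in KO livers on CDA-HFD, so that the groups did not overlap on either diet. At most 100 reads fell on Cideb in a liver, and 76.3% of its exonic bases are shared with Nop9 on the other strand. KO liver 5 on CDA-HFD stood apart from the other 4 KO livers on that diet. Its summed hepatocyte markers came to 32632 CPM against 66815 to 95509 CPM in the others, and its summed cholangiocyte markers to 670 CPM against 84.9 to 190 CPM. Calls of the 8 genes that change without this liver are given with and without it. All 8 hepatocyte markers were detected in every group.

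**Figure D1:**
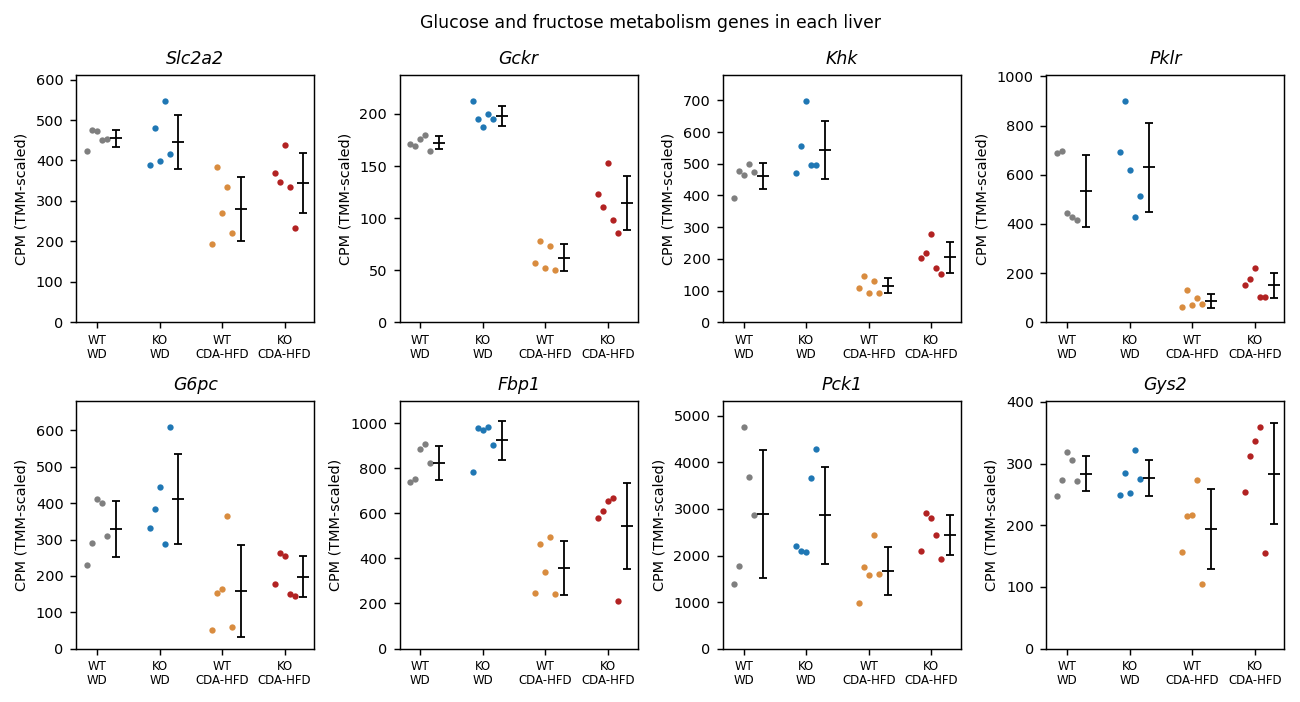
Level of each of the 8 genes (y axis, TMM-scaled CPM, from 0) in the 5 livers of each of 4 groups (x axis). Points are single livers and the bars beside them are the mean ± SD. All 8 genes have their lowest mean in WT livers on CDA-HFD and a higher mean in KO livers on that diet. WT and KO livers on CDA-HFD are without overlap for Gckr and Khk and overlap for the others, Pklr among them. For Fbp1, KO liver 5 on CDA-HFD (209 CPM) lies far below the other 4.

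RefSeq promoter windows of GRCm38.p6, the same assembly as the mm10 build of the count table, were matched for 7 of the 8 genes, with 8 windows in all because Pklr has a pair of start sites. Gys2 had no entry. In the 250 bases before each start, 8 short motifs of factors known to act on sugar metabolism were searched on both strands. They are the E-box CACGTG, the cAMP response element TGACGTCA and its part TGACG, the Foxo site TGTTTAC, the insulin response core TGTTTTG, the Hnf1 site core GTTAAT, the TATA box TATAAA and the carbohydrate response element, which is a pair of degenerate E-boxes at a fixed spacing. The stretches below are shown because they hold the matches in the 3 genes that differed most between diets (Pklr, Khk, Gckr) and in 2 gluconeogenic genes (G6pc, Pck1), apart from the TATA boxes of Pklr (bases -31 to -26 from the start) and G6pc (-29 to -24), which lie outside the stretches. Capitals mark the motif letters on either strand.
Pklr, liver start, chr3:89136438-89136484, plus strand: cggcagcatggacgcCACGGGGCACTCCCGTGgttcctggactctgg
Khk, chr5:30921485-30921504, plus strand: CGTCACGTGacaccGTTAAT
Gckr, chr5:31297480-31297509, plus strand: TGTTTTGagaggcagggttcttagGTTAAT
G6pc, chr11:101367480-101367560, plus strand: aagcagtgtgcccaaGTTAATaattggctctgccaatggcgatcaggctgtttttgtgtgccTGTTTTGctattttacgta
Pck1, chr2:173152866-173153002, plus strand: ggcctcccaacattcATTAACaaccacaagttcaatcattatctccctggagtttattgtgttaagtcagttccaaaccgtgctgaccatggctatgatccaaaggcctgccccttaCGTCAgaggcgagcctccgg

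The carbohydrate response element, through which ChREBP acts, was found in 1 of the 8 windows, in front of the liver start of Pklr at bases -170 to -154, and in 0.0974% of all 32851 windows. The E-box was found in 1 of the 8 (Khk, bases -71 to -66) and in 6.02% of all windows, and in Khk its first bases overlap a match to the part of the cAMP response element. That part was found in 2 of the 8 (Khk and Pck1) against 17.8% of all windows, and the whole cAMP response element in 0 of the 8 against 1.55%. The Hnf1 site core was found in 4 of the 8 (G6pc, Gckr, Khk and Pck1) against 6.43%, the insulin response core in 2 (G6pc and Gckr) against 5.56%, the TATA box in 2 (G6pc and Pklr) against 12.4%, and the Foxo site in 0 against 3.17%. The Khk and Gckr stretches lie inside an exon of a longer GENCODE M21 transcript of the same gene. These are matches of letters in a window and say nothing on binding.

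The genes differ widely in abundance. Levels were compared between genes as mean CPM per kilobase of merged exon length. In WT livers on WD, Pck1 was the most abundant (844 ± 401 CPM per kilobase, SD, n = 5), followed by Fbp1 (483 ± 44.4), Khk (257 ± 22.5), Pklr (165 ± 44.9), G6pc (136 ± 31.6), Gys2 (107 ± 10.7), Slc2a2 (79.0 ± 3.73) and Gckr (39.7 ± 1.43). The livers of neighbours in this order overlapped for Pck1 and Fbp1, for Pklr and G6pc, and for G6pc and Gys2. The top and the bottom of the order, Pck1, Fbp1 and Gckr, were the same in all 4 groups. Khk and Pklr moved down in WT livers on CDA-HFD, Khk from place 3 to place 5 (63.8 ± 13.2 CPM per kilobase) and Pklr from place 4 to place 7 (26.8 ± 8.94). Read counts of the 8 genes ran from 783 (G6pc) to 62830 (Pck1) in a single liver.

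CDA-HFD against WD in WT livers asks how the sugar genes differ between a sugar-rich diet and a choline-deficient one. Of the 8 genes, 6 were lower on CDA-HFD and 0 were higher (edgeR quasi-likelihood test, Benjamini-Hochberg adjusted p under 0.05), where 25.2% of all 16726 genes tested were lower and 25.9% higher. DESeq2 called 7 of the 8 lower and 0 higher, where it called 4371 of all 16726 genes lower and 4444 higher. The median of the 8 log2 fold changes was -1.13 against 0 for all genes to 2 decimals. For 5 of the 8 the groups did not overlap, as was the case for 37.1% of all genes. The changes were greatest in Pklr, Khk and Gckr.

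Pklr encodes the liver pyruvate kinase, which makes pyruvate in the last step of glycolysis, and its promoter holds the carbohydrate response element printed above. It lies at chr3:89136142-89146784 on the plus strand (ENSMUSG00000041237.12). In WT livers on WD its level was 689, 698, 446, 426 and 414 CPM, and on CDA-HFD it was 60.1, 132, 69.9, 99.1 and 73.1 CPM. Every liver on CDA-HFD thus lay far below every liver on WD, and the WD livers themselves fell into a higher pair and 3 lower ones. The difference was 6.19-fold (log2 fold change -2.63, SE 0.25, edgeR adjusted p = 1.85e-05). Of the exonic bases of Pklr, 711 of 3236 are shared with Hcn3, an ion channel gene on the opposite strand, whose log2 fold change was -3.74 (SE 0.34, edgeR adjusted p = 1.6e-05). Whether counting used strand is not given in the sources used here. It is thus not known whether reads over these bases were counted for Pklr, for Hcn3 or for neither.

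Khk encodes ketohexokinase (fructokinase), which phosphorylates fructose and commits it to the liver (chr5:30921431-30931248, plus strand, ENSMUSG00000029162.15). Its levels in WT livers were 393, 476, 466, 499.8 and 473 CPM on WD and 109, 147, 93.7, 130 and 93.1 CPM on CDA-HFD. The diets were cleanly apart, with no liver of either between them. Khk was 4.05-fold lower on CDA-HFD (log2 fold change -2.02, SE 0.14, edgeR adjusted p = 4.17e-06).

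Gckr encodes a nuclear regulatory protein of hepatic glucose phosphorylation that responds to fructose phosphates (chr5:31297443-31327314, plus strand, ENSMUSG00000059434.9). It measured 171, 169, 176, 180.2 and 164 CPM in WT livers on WD, the tightest group of any of the 8 genes, and 57.1, 77.9, 51.7, 73.5 and 50.5 CPM on CDA-HFD. It was 2.79-fold lower on CDA-HFD (log2 fold change -1.48, SE 0.13, edgeR adjusted p = 1.15e-05), and the diets did not overlap.

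Slc2a2 encodes GLUT2, the main glucose carrier of the hepatocyte membrane, which works in both directions (chr3:28697903-28731359, plus strand). It ranged from 422 to 476 CPM on WD and from 195 to 384 CPM on CDA-HFD, without overlap, and was 1.63-fold lower (log2 fold change -0.70, SE 0.17, edgeR adjusted p = 0.00467).

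Fbp1 encodes fructose-1,6-bisphosphatase, which bypasses phosphofructokinase on the way to glucose (chr13:62864753-62888282, minus strand). Its levels in WT livers were 739, 753, 885, 906 and 825 CPM on WD against 248, 463, 338, 496 and 240.5 CPM on CDA-HFD. It was 2.31-fold lower on CDA-HFD without overlap (log2 fold change -1.21, SE 0.20, edgeR adjusted p = 0.000508). Pck1 and G6pc, which also act on the gluconeogenic route, did not pass the edgeR test. That result held in only 10 of 17 alternatives for Pck1 and 13 of 17 for G6pc. Pck1 encodes cytosolic phosphoenolpyruvate carboxykinase (chr2:173153048-173159273, plus strand) and had a log2 fold change of -0.80 (SE 0.33, edgeR adjusted p = 0.0625), with livers from 1398 to 4755 CPM on WD and from 984 to 2438 CPM on CDA-HFD. G6pc encodes the catalytic subunit of glucose-6-phosphatase, which releases free glucose (chr11:101367561-101377903, plus strand). Its log2 fold change was -1.06 (SE 0.45, edgeR adjusted p = 0.0703), and the 5 WT livers on CDA-HFD measured 49.8, 152, 163, 366 and 60.6 CPM. Liver 4 alone reached the WD range of 230 to 411 CPM, and without it G6pc passed (log2 fold change -1.62, adjusted p = 0.00324). Without liver 1 or 2 on WD, or liver 4 on CDA-HFD, Pck1 passed too (adjusted p = 0.018, 0.0401 and 0.0355).

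Gys2, which encodes the liver glycogen synthase (chr6:142422613-142473109, minus strand), was lower by a narrow margin. It ranged from 248 to 318 CPM on WD and from 104 to 274 CPM on CDA-HFD, with overlap, and the difference was 1.47-fold (log2 fold change -0.56, SE 0.21, edgeR adjusted p = 0.042). Its call was lost when any of livers 2, 3, 4 and 5 on WD or livers 1 and 3 on CDA-HFD was left out (adjusted p from 0.0568 to 0.0951).

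**Figure D2:**
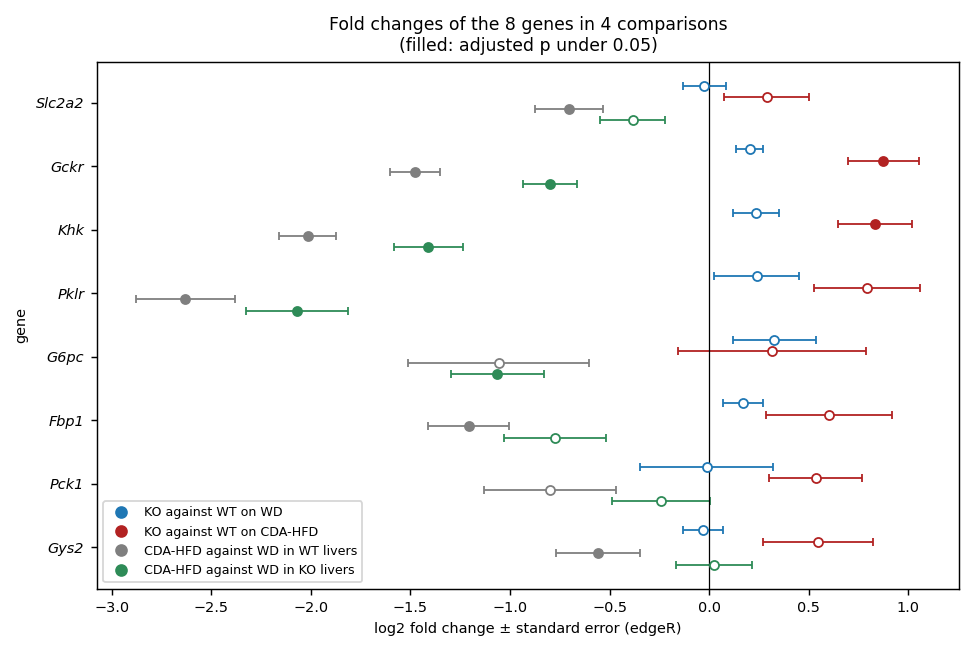
Log2 fold change ± standard error (x axis) of each of the 8 genes (y axis) in 4 comparisons of 5 against 5 livers. Filled points have an edgeR adjusted p under 0.05. The diet comparisons lie left of 0 with Pklr furthest out (-2.63 in WT livers), except Gys2 in KO livers (0.02), and all 8 points of KO against WT on CDA-HFD lie right of 0, with Gckr and Khk filled.

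Other cell types and general hepatocyte markers moved with diet as well. In WT livers 6 of 8 hepatocyte markers were lower on CDA-HFD and 1 higher, with a median log2 fold change of -0.64 and a lowest value of -1.05 (Ttr). The log2 fold changes of Fbp1, Gckr, Khk and Pklr were below those of all these markers. G6pc was close to Ttr, and Pck1, Slc2a2 and Gys2 lay within the range of the markers. The summed hepatocyte markers ranged from 54972 to 91434 CPM on WD and from 31686 to 66560 CPM on CDA-HFD. Of the marker lists of other cells, 9 of 10 stellate cell markers, 7 of 7 cholangiocyte markers, 5 of 10 macrophage markers and 4 of 7 tested lymphocyte markers were higher, while 2 macrophage markers and 6 of 8 endothelial markers were lower. Summed stellate cell markers went from 676 to 1304 CPM on WD to 2518 to 4191 CPM on CDA-HFD, cholangiocyte markers from 43.2 to 180.4 CPM to 382 to 815 CPM, and macrophage markers from 412 to 1284 CPM to 1752 to 3637 CPM. Lymphocyte markers stayed low, at 4.23 to 11.5 CPM against 9.99 to 17.3 CPM, with Trac at 0 in every liver. Of the 5 pancreatic islet markers, Ins1, Ins2 and Iapp were at 0 in every liver. In bulk tissue, fewer hepatocytes and less RNA per hepatocyte cannot be told apart. The part of these cells in the lower level of the 8 genes on CDA-HFD was not tested.

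**Figure D3:**
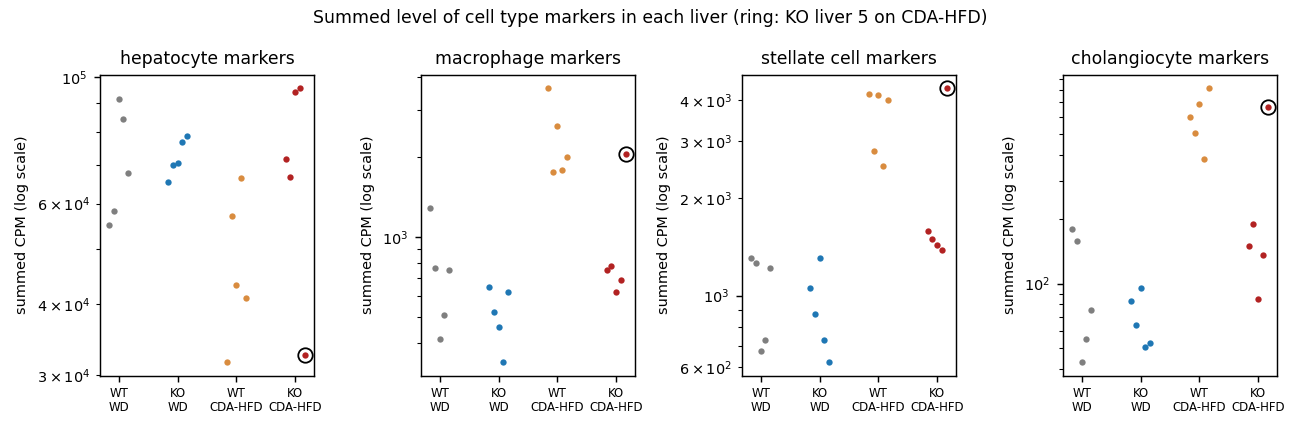
Summed CPM (y axis, log scale) of the markers of 4 cell types in each liver of the 4 groups (x axis). Points are single livers and the ring marks KO liver 5 on CDA-HFD, which has the lowest hepatocyte sum of its group (32632 CPM) and, for the other 3 lists, a sum inside or above the range of WT livers on CDA-HFD.

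KO against WT on CDA-HFD asks whether loss of hepatocyte Cideb changes these genes on the choline-deficient diet. Gckr and Khk rose, which makes 2 of 8, and 0 fell, where 8.19% of all 17204 genes tested rose and 7.29% fell. All 8 log2 fold changes were above 0, with a median of 0.57 against 0 for all genes to 2 decimals. Gckr and Khk were also the 2 genes whose groups did not overlap, as was the case for 9.57% of all genes.

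Gckr measured 57.1, 77.9, 51.7, 73.5 and 50.5 CPM in WT livers and 123, 110.3, 153, 98.4 and 85.8 CPM in KO livers on CDA-HFD. The highest WT liver lay just below the lowest KO liver, which is liver 5. Gckr was 1.83-fold higher (log2 fold change 0.87, SE 0.18, edgeR adjusted p = 0.0156), and its call held in all 17 alternatives. Khk measured 109, 147, 93.7, 130 and 93.1 CPM in WT livers and 204, 219, 279, 171 and 152 CPM in KO livers, again with KO liver 5 lowest and close to the highest WT liver. It was 1.78-fold higher (log2 fold change 0.83, SE 0.19, edgeR adjusted p = 0.0191). The call of Khk was lost without WT liver 3, WT liver 5 or KO liver 1 (adjusted p = 0.0543, 0.0518 and 0.0516). Both genes in KO livers on CDA-HFD still lay below every KO liver on WD.

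The other 6 genes did not pass in the edgeR fit of 5 against 5 livers. Among the alternatives that keep every liver, Pklr passed with DESeq2 (adjusted p = 0.0238) and with all 20 livers in one edgeR fit (0.032). Gys2 passed in edgeR with the replicate number as a block (0.0202). Pklr had a log2 fold change of 0.79 (SE 0.27, edgeR adjusted p = 0.0643), with KO livers at 153, 175, 222, 103 and 102 CPM, of which livers 4 and 5 lay inside the WT range. For Fbp1 the log2 fold change was 0.60 (SE 0.32, edgeR adjusted p = 0.196), with KO livers at 578, 612, 656, 667 and 209 CPM. The first 4 of these exceed every WT liver (at most 496 CPM), and liver 5 lies below every WT liver. Gys2 likewise had liver 5 lowest, with KO livers at 254, 312, 336, 359 and 155 CPM and a log2 fold change of 0.55 (SE 0.27, edgeR adjusted p = 0.178). Pck1 (0.54, SE 0.23, adjusted p = 0.128), G6pc (0.31, SE 0.47, adjusted p = 0.659) and Slc2a2 (0.29, SE 0.21, adjusted p = 0.353) had smaller log2 fold changes. Of the 8 genes 4 (Gckr, Khk, Pklr and Pck1) had an unadjusted p under 0.05, a level at which all genes were not counted.

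Without KO liver 5, 5 of the 8 genes passed, Fbp1 (log2 fold change 0.81, edgeR adjusted p = 0.0112), Pklr (0.91, 0.0142) and Gys2 (0.70, 0.0301) in addition to Gckr and Khk, and the number of all genes past the threshold went from 2664 to 7201. Markers moved with these genes. With all livers in, 3 of 8 hepatocyte markers passed as higher in KO livers (median log2 fold change 0.59, against 0.57 for the 8 genes). The highest marker, Hnf4a (0.84), lay above Khk and below Gckr, and Ttr was at 0.76. The rise of the 8 genes was thus of like size to that of these markers. As lower, 4 of 10 macrophage markers and 1 of 10 stellate cell markers passed. Of 7 cholangiocyte, 8 endothelial and 8 tested lymphocyte markers 0 passed in edgeR, while 2, 4 and 0 had an unadjusted p under 0.05 and DESeq2 called 2, 3 and 0. Without liver 5, 4 hepatocyte, 6 endothelial and 1 macrophage markers were higher and 6 macrophage, 8 stellate cell and 6 cholangiocyte markers were lower. In KO livers 1 to 4 the summed macrophage markers were 618 to 776 CPM and in liver 5 they were 2055 CPM, and the stellate cell sums were 1383 to 1578 and 4363 CPM. The part of these cells in the rise of Gckr and Khk was not tested.

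CDA-HFD against WD in KO livers uses the same KO livers on CDA-HFD as the comparison above. Of the 8 genes, 4 were lower (G6pc, Gckr, Pklr and Khk) and 0 higher, against 7.85% lower and 9.19% higher among all 16387 genes tested. The groups did not overlap for 5 of 8 genes (these 4 and Fbp1), against 15.2% of all genes. Pklr was 4.2-fold lower (log2 fold change -2.07, SE 0.26, edgeR adjusted p = 0.000538), from 692, 900, 619, 427 and 512 CPM on WD. Khk was 2.66-fold lower (-1.41, SE 0.17, adjusted p = 0.000502) from 470.1, 556, 698, 496 and 496 CPM, and Gckr 1.74-fold lower (-0.80, SE 0.14, adjusted p = 0.00338). G6pc was 2.09-fold lower (log2 fold change -1.06, SE 0.23, edgeR adjusted p = 0.0122, or 0.0522 with all 20 livers in one fit), with livers at 333, 384, 445, 288 and 609 CPM on WD and 179, 263, 254, 150.0 and 144 CPM on CDA-HFD. Its fold change is close to that in WT livers, where its spread was wider. Fbp1 (-0.77, SE 0.26, adjusted p = 0.0574), Slc2a2 (-0.38, SE 0.16, adjusted p = 0.123) and Pck1 (-0.24, SE 0.24, adjusted p = 0.527) did not pass, and Gys2 did not either (0.02, SE 0.19, adjusted p = 0.945). Without KO liver 5 Fbp1 passed (log2 fold change -0.57, edgeR adjusted p = 0.00384). Of 8 hepatocyte markers 0 passed in edgeR, 2 had an unadjusted p under 0.05 and DESeq2 called 1. In edgeR 4 of 7 cholangiocyte, 3 of 10 stellate cell, 4 of 10 macrophage and 3 of 5 tested lymphocyte markers were higher, and the part of those cells was not tested.

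KO against WT on WD asks the same question on the sugar-rich diet. In edgeR 0 of 8 genes passed, as in DESeq2, where in edgeR 0.0126% of all 15848 genes passed as higher and 0.0631% as lower. An unadjusted p under 0.05 was found for 1 of the 8 (Gckr), a level at which all genes were not counted. Gckr was the single gene of the 8 whose groups did not overlap, where 2.22% of all genes did not. It measured 171, 169, 176, 180.2 and 164 CPM in WT livers and 212, 195, 188, 200.1 and 195 CPM in KO livers, a difference of 1.15-fold (log2 fold change 0.20, SE 0.07, edgeR adjusted p = 0.319). The log2 fold changes of the other 7 genes ran from -0.03 (Gys2, SE 0.10) to 0.33 (G6pc, SE 0.21), with edgeR adjusted p from 0.493 to 0.995. Pck1 varied most, from 1398 to 4755 CPM in WT livers and from 2071 to 4293 CPM in KO livers, so that its log2 fold change of -0.01 has an SE of 0.33.

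Whether the KO effect differs between diets was tested as an interaction over all 20 livers. In edgeR 0 of 8 genes passed, where 0.556% of all 17804 genes passed. DESeq2 called 1 (Gckr, adjusted p = 0.0369), where it called 434 of all 17804 genes. An unadjusted p under 0.05 was found for 2 (Gckr and Khk), a level at which all genes were not counted. The interaction was 0.68 for Gckr (SE 0.19, edgeR adjusted p = 0.115) and 0.61 for Khk (SE 0.23, adjusted p = 0.213), that is, the KO difference was larger on CDA-HFD than on WD by these log2 amounts. Without KO liver 5 on CDA-HFD both passed (Gckr 0.76, edgeR adjusted p = 0.0109, and Khk 0.70, 0.0403). For G6pc the interaction was -0.005 with an SE of 0.55. With all livers in, a larger rise on CDA-HFD than on WD is thus not shown for Khk, and for Gckr it passed in DESeq2 and not in edgeR.

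The opposing enzymes were set against each other within each liver as the log2 ratio of their read counts. Pck1 to Pklr, which stand on either side of phosphoenolpyruvate, was 1.02, 1.34, 3.41, 3.11 and 2.79 in WT livers on WD and 4.03, 3.74, 4.50, 4.62 and 4.44 on CDA-HFD, so that every CDA-HFD liver was further to the side of Pck1 than every WD liver. In KO livers the ratio lay from 1.21 to 3.10 on WD and from 3.66 to 4.57 on CDA-HFD, also without overlap, and on each diet WT and KO livers overlapped. Fbp1 to Pfkl, the gene of liver phosphofructokinase, went the other way. In WT livers it lay at 3.67 to 4.20 under WD but 2.54 to 3.61 under CDA-HFD, without overlap. KO livers spanned 3.78 to 4.55 on WD and 2.14 to 3.96 on CDA-HFD, where liver 5 is the lowest and the other 4 start at 3.58, so that the diets overlapped in KO livers with and without liver 5. No p is given for the ratios.

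Pathway lists around the 8 genes place them among their neighbours, and members that belong to a list are counted in it. For CDA-HFD against WD in WT livers, 25.2% of all 16726 genes tested were lower and 25.9% higher, and the list counts stand beside these shares. In this comparison 8 of 13 tested gluconeogenesis genes were lower and 1 higher (median log2 fold change -0.95). Pcx (-1.43, SE 0.11), the pyruvate carboxylase of the first bypass, and Mdh1 (-1.21, SE 0.15), the cytosolic malate dehydrogenase, were among the lower ones. Of 8 fructose and polyol genes 6 were lower and 1 higher (median -1.19), among them Khk and Tkfc (-1.48, SE 0.16), the triokinase that phosphorylates glyceraldehyde in fructose breakdown. Of 23 glycogen genes 13 were lower and 6 higher, with Gbe1 (-1.32, SE 0.12), the branching enzyme, and Pygl (-1.70, SE 0.15), the liver phosphorylase, both lower. Of 11 pyruvate oxidation genes 8 were lower and 2 higher, with the kinase Pdk1 at -2.07 (SE 0.15) and the dehydrogenase subunit Pdhb at -1.02 (SE 0.09).

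The pentose phosphate list had 5 of 8 lower and 1 higher. Tkt, transketolase, was lower (-0.62, SE 0.08), and the 1 higher gene was G6pdx (1.27, SE 0.19), the entry enzyme of the pathway. Of 6 tested glucose transport genes 3 were lower and 1 higher, with Slc2a9, known as a urate carrier, at -1.10 (SE 0.15) and Slc2a4, the insulin-responsive carrier of muscle and fat, at -2.60 (SE 0.45). Slc2a4 was near the floor, at 1.09 to 5.33 CPM in WT livers on WD and 0.282 to 1.08 CPM on CDA-HFD. Of 15 regulators 10 were lower and 1 higher, with Mlxipl (ChREBP) at -1.67 (SE 0.17) and Cebpa, a hepatocyte transcription factor, at -0.96 (SE 0.13). Mlxipl went from 366 ± 58.1 CPM on WD to 116 ± 28.5 CPM on CDA-HFD in WT livers and stood at 245 ± 54.7 CPM in KO livers on CDA-HFD (SD, n = 5). The group means of Gckr, Khk, Pklr, G6pc and Fbp1 stood in the same order, and so did those of the hepatocyte markers Ttr, Apoh, Fgb and Asgr1. Pck1, Slc2a2 and Gys2 and the markers Alb, Apoa1, Ahsg and Hnf4a had other orders. A link of Mlxipl to these genes was not tested. All adjusted p of the pathway genes given here with an SE were at most 0.000623 (edgeR).

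Glycolysis had calls in both directions. Of 27 genes 13 were lower and 10 higher, and Gapdh (-1.36, SE 0.12) and Eno1 (-0.96, SE 0.11), enzymes of the lower pathway, were among the lower ones (adjusted p at most 5.37e-05). Liver forms and other forms of the same enzyme were then compared, a choice made after the values were seen. Beside Pklr, its counterpart Pkm, the pyruvate kinase of most other cells, was 2.99-fold higher on CDA-HFD in WT livers (log2 fold change 1.58, SE 0.27, edgeR adjusted p = 0.000502), from 39.8 ± 13.8 to 120 ± 43.1 CPM. Of the hexokinases, Hk1 (1.27, SE 0.21, adjusted p = 0.000461) and Hk3 (1.68, SE 0.31, adjusted p = 0.000897) were higher and Hk2 was at 0.09 (SE 0.40, adjusted p = 0.862). Of the aldolases of other tissues, Aldoa (0.51, SE 0.13, adjusted p = 0.00633) and Aldoc (1.28, SE 0.21, adjusted p = 0.000387) were higher. Beside Gys2, the muscle form Gys1 was at 0.39 (SE 0.14, adjusted p = 0.0332, lost without any 1 of 6 livers) and beside Slc2a2 the carrier Slc2a1 at 0.05 (SE 0.18, adjusted p = 0.828). Beside Pfkl, the muscle form Pfkm went the other way from Pkm. It lay at 16.3 to 20.7 CPM on WD and at 7.09 to 10.9 CPM on CDA-HFD in WT livers, without overlap. The summed stellate cell, cholangiocyte and macrophage markers given above rose in the same livers, and their part in the level of these forms was not tested.

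**Figure D4:**
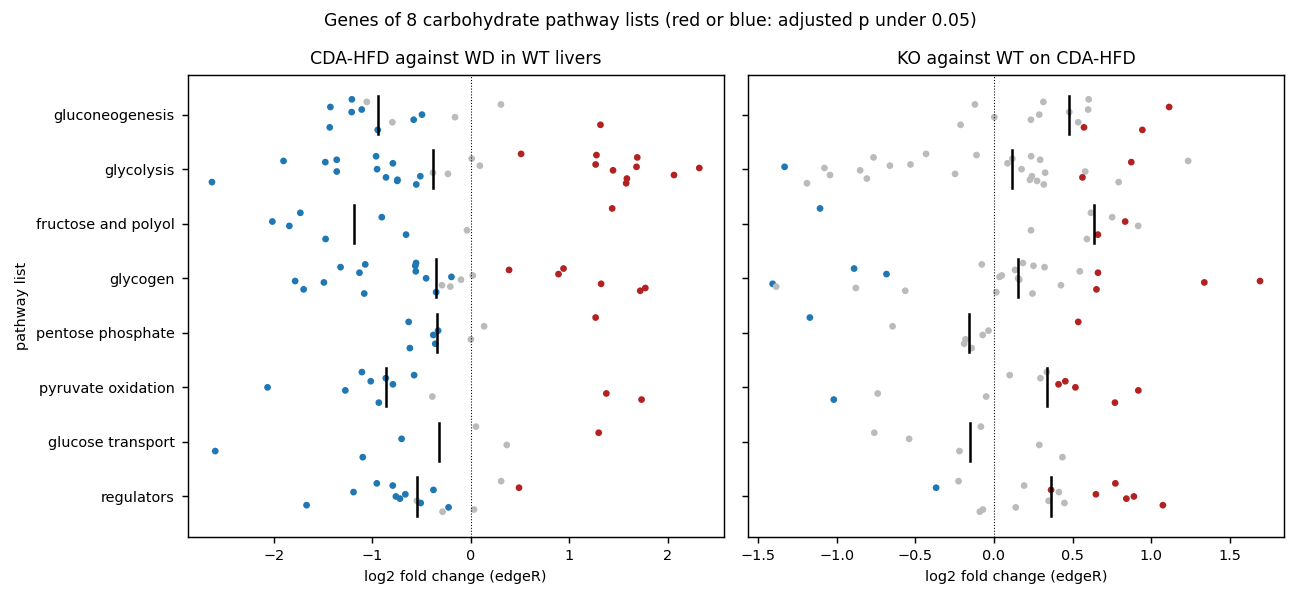
Log2 fold change (x axis) of every tested gene of 8 carbohydrate pathway lists (y axis) for CDA-HFD against WD in WT livers and for KO against WT on CDA-HFD. Red and blue points are higher and lower with an edgeR adjusted p under 0.05, grey points did not pass, and black bars are list medians, which for fructose and polyol genes are -1.19 for the diet and 0.64 for the KO.

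KO against WT on CDA-HFD gave fewer calls in these lists, where 8.19% of all 17204 genes tested were higher and 7.29% lower. In gluconeogenesis 3 of 13 were higher and 0 lower, with Slc37a4 (log2 fold change 0.94, SE 0.21, edgeR adjusted p = 0.0194), the carrier that brings glucose 6-phosphate to G6pc, and Pcx (0.57, SE 0.15, 0.0278). In the fructose and polyol list 2 of 8 were higher, Khk and Sord (0.66, SE 0.20, 0.04999), the sorbitol dehydrogenase that makes fructose, and 1 was lower, the aldose reductase Akr1b3 (-1.11, SE 0.20, 0.0122). In glycogen 4 of 23 were higher and 3 lower, with the glycogen-targeting phosphatase subunits Ppp1r3c (1.34, SE 0.20, 0.00798) and Ppp1r3d (-1.41, SE 0.28, 0.0147) in opposite directions. Ppp1r3d was near the floor, at 1.41 to 3.42 CPM in WT livers and 0.627 to 1.14 CPM in KO livers. Ppp1r3c did not pass with all 20 livers in one fit (edgeR adjusted p = 0.0951). Glycolysis had 2 of 27 higher and 1 lower, among them Pfkm (0.56, SE 0.14, 0.0275) and Hk3 (-1.33, SE 0.34, 0.027). Pkm stood at -1.19 (SE 0.37, edgeR adjusted p = 0.0509). It passed with DESeq2 (adjusted p = 0.0118), with no filter (0.0426), with the replicate block (0.0298), with all 20 livers in one fit (0.0158) and without KO liver 5 (-1.71, 0.000316), and not in the other 12 alternatives. Without liver 5, 11 of 27 glycolysis genes were higher and 10 lower, where 3406 of all 17411 genes were higher and 3795 lower. Among the lower ones were Hk1 (-0.87, adjusted p = 0.00427), Hk2 (-0.94, 0.00226) and Aldoa (-0.53, 0.00601).

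In pyruvate oxidation 5 of 11 were higher and 1 lower, with Pdp2 (0.77, SE 0.16, edgeR adjusted p = 0.0157), a phosphatase that activates pyruvate dehydrogenase, and Pdk2 (0.92, SE 0.19, 0.0167), a kinase that inactivates it, both higher. In the pentose phosphate list H6pd (0.54, SE 0.14, 0.0287), the form of the endoplasmic reticulum, was the 1 higher of 8 and G6pdx (-1.17, SE 0.26, 0.0182) the 1 lower. Of 6 tested glucose transport genes 0 passed in edgeR and in DESeq2, and 1 had an unadjusted p under 0.05. Of 15 regulators 6 were higher and 1 lower, with Mlxipl at 1.07 (SE 0.20, 0.0132) and Hnf4a, which also stands on the hepatocyte marker list, at 0.84 (SE 0.17, 0.0154). Over the 111 tested genes of all lists, 23 were higher and 8 lower with all livers, where 8.19% of all genes were higher and 7.29% lower. Without KO liver 5 they were 49 and 26 of 111, where 3406 of all 17411 genes were higher and 3795 lower. Of the 14 named in this comparison by their adjusted p, 7 lost their call when some single liver was left out (Slc37a4, Pcx, Hk3, Pfkm, Sord, G6pdx and H6pd, adjusted p from 0.0502 to 0.121). On WD 0 of 107 passed in edgeR, and DESeq2 called 2, where it called 164 of all 15848 genes. An unadjusted p under 0.05 was found for 11 of the 107, a level at which all genes were not counted.

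CDA-HFD against WD in KO livers left 34 of 108 pathway genes lower and 8 higher, where 66 of 111 were lower and 23 higher in WT livers. Among all genes tested, 7.85% were lower and 9.19% higher in KO livers, against 25.2% and 25.9% in WT livers. By list, gluconeogenesis had 4 of 13 lower and 1 higher, glycolysis 7 of 25 and 3, fructose and polyol 3 of 8 and 0, glycogen 6 of 23 and 3, pentose phosphate 4 of 8 and 0, pyruvate oxidation 5 of 11 and 1, glucose transport 2 of 5 and 0 and regulators 3 of 15 and 0. Pcx was at -0.86 (SE 0.14, edgeR adjusted p = 0.00233), Mdh1 at -0.67 (SE 0.14, 0.0114), Tkfc at -0.87 (SE 0.23, 0.0284), Pygl at -1.14 (SE 0.14, 0.000407), Gbe1 at -0.59 (SE 0.11, 0.00662) and Pdk1 at -1.55 (SE 0.12, 5.52e-05). The call of Tkfc was lost without KO liver 1, 2 or 3 on WD or liver 4 on CDA-HFD (0.0513 to 0.0614). Gapdh was at -0.84 (SE 0.13, 0.00188) and Aldoc was higher (1.17, SE 0.17, 0.00167). Mlxipl was at -1.01 (SE 0.16, 0.00233), Foxo1, whose product drives gluconeogenic genes, at -0.85 (SE 0.15, 0.00405), Tkt at -0.64 (SE 0.11, 0.00295), the lactonase Pgls at -0.67 (SE 0.12, 0.00513), Pdha1 at -0.49 (SE 0.10, 0.00689), Slc2a4 at -2.82 (SE 0.44, 0.00212) and Slc2a9 at -0.73 (SE 0.15, 0.00775). With all 20 livers these counts are not a tested difference between KO and WT livers for most genes. In the interaction 1 of 112 pathway genes passed, Gbe1 (0.73, SE 0.16, edgeR adjusted p = 0.0475). DESeq2 called 7 with a positive and 1 with a negative interaction, where it called 434 of all 17804 genes. An unadjusted p under 0.05 was found for 43 of the 112, a level at which all genes were not counted. Without KO liver 5 on CDA-HFD, 31 of the 112 passed with a positive and 8 with a negative interaction, where the count over all genes went from 99 to 2138. The call of Gbe1 was lost in 22 of 26 alternatives, among them 18 of the 20 in which 1 liver was left out (adjusted p from 0.0546 to 0.113).

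For each of the 8 genes the 2 genes of most like pattern over the 20 livers were found, by the root mean square difference of centred log2 CPM, read against the gene's own root mean square spread. Pklr, with a spread of 1.28, was nearest to Elovl6 (difference 0.40) and Fasn (0.42), a fatty acid elongase and the fatty acid synthase. Khk (spread 0.94) was nearest to Haao (0.21), an enzyme of tryptophan breakdown, and Pdk1 (0.21), and Gckr (0.69) to Grhpr (0.16) and Ipmk (0.16). Fbp1 (0.70) was nearest to Tfr2 (0.16) and Cat (0.16), the second of which encodes catalase. Pck1 (0.55) was nearest to Klf15 (0.22), a transcription factor induced in fasting, and Shb (0.25), Slc2a2 (0.40) to Fggy (0.14) and Rcl1 (0.14), Gys2 (0.43) to Slc10a5 (0.15) and Phyh (0.16), and G6pc (0.90) to Pipox (0.43) and LOC118568650 (0.43). The fit was closest, relative to the spread, for Khk, Fbp1 and Gckr, and loosest for G6pc. No nearest gene was itself among the 8.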

How the data were processed

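Liver RNA of 20 mice in 4 groups was sequenced, and the authors deposited 1 table of raw read counts per gene symbol in the form that htseq-count writes. The labels name a directional library kit and the study's methods another, single-end, kit, so whether counting used strand is not known. The submitters' processing notes name the build mm10, and the aligner and counter are not given in the sources used here. The 5 tally rows were left out (no feature 20.7% to 28.8% and not unique 18.0% to 28.7% of all tallied reads, per liver). Samples were grouped by the vector and the diet in the labels.

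Each pair of groups was fitted by itself in edgeR 4.0.16 (R 4.3.3; filterByExpr, TMM scaling, glmQLFit and glmQLFTest), and the interaction of diet and KO over all 20 livers, with Benjamini-Hochberg adjustment over all genes tested and a threshold of 0.05. Counts at an unadjusted p under 0.05 were made for the 8 genes and the lists only. No share of all genes stands beside them. Standard errors are the size of the log2 fold change divided by the square root of F. The fits were tested on simulated data. CPM are TMM-scaled over all 20 livers, and log2 CPM use a prior count of 2. Exon lengths come from GENCODE M21 (GRCm38). Alternatives were RLE size factors, library size alone, DESeq2 1.42.0, no filter, at least 10 counts in every liver, a replicate block, all 20 livers in one fit, and leaving out each liver. Figures used matplotlib 3.10.9. The 8 genes had at least 783 reads in every liver.

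The 8 genes and the gene lists were chosen with earlier results of these data known. Named are the 8 genes, Pfkl as a partner, Cideb, and per list and comparison up to 2 further genes past the threshold with the smallest adjusted p, of which a few items are not reported here. Hcn3 and the other isoforms were named after their values were seen. Counts of 40 pairs of livers differed by more than sampling noise, so no library was counted as a copy.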

Additional observations from a re-analysis of the deposited data

Results flagged for a closer look

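In the 44 groups of 5 livers examined (8 genes, Pfkl and 2 ratios), 2 had a liver far from the others by Dixon's ratio, the gap to the nearest liver over the whole range (critical value 0.71), where chance gives about 5% of groups. Both are KO liver 5 on CDA-HFD. For Fbp1 its ratio was 0.804, with 209 CPM against 578 to 667 CPM in the other 4 livers. For the log2 ratio of Fbp1 to Pfkl it was 0.792, with 2.14 against 3.58 to 3.96.

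The KO effect on Gbe1, the glycogen branching enzyme, differed between diets by 0.73 on the log2 scale in the interaction test (edgeR adjusted p = 0.0475), a call lost in 22 of 26 alternatives. The 2 diets went in opposite directions. On WD, KO livers lay at 219 to 262 CPM and WT livers at 285 to 348 CPM, a difference that did not pass in edgeR. On CDA-HFD the mean was 157 CPM in KO and 125 CPM in WT livers, with overlap.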

How the results depend on the processing

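The 8 genes were followed through 752 further fits, of which 687 kept direction and side of the threshold, 24 newly passed, 13 no longer passed and 28 changed sign. For the other named genes 1050 of 1154 kept both, 13 newly passed, 82 no longer passed and 9 changed sign. The sign changes were all of differences that passed under neither setting. On WD they were Pck1 (0.069 with the replicate block, -0.21 to 0.23 over single livers left out), Gys2 (-0.10 to 0.0083) and Slc2a2 (-0.12 to 0.026). For the diet in KO livers they were Gys2 (-0.022 with the block, -0.072 to 0.18 over livers left out) and, with library size alone, Pck1 (0.0084) and Pfkl (0.055). In the interaction it was G6pc (0.37 with the block, -0.23 to 0.57 over livers left out). For Gys1 in KO against WT on CDA-HFD it was -0.042 with library size alone, and for the diet in WT livers Slc2a1 (-0.061 to 0.15) and Hk2 (-0.13 to 0.39) over livers left out.

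The counts of all genes moved more. KO against WT on WD had 12 genes, and 164 with DESeq2, 38 with no filter, 2 with the replicate block, 26 with all 20 livers and 1 to 33 with a liver left out. KO against WT on CDA-HFD had 2664, and 1709 with library size alone, 4144 with DESeq2, 4170 with all 20 livers and 709 to 7201 with a liver left out, of the 8 genes 1 to 5. The diet in KO livers had 2792, and 4476 with all 20 livers and 1568 to 2881 with a liver left out. The interaction had 99, and 44 with library size alone, 434 with DESeq2, 52 with no filter, 8 with the block and 35 to 2138 with a liver left out, of the 8 genes 1 with DESeq2 and 0 to 2 with a liver left out. The cause of these shifts was not tested.

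Library size alone moved the median log2 fold change of all genes to -0.19 (KO on CDA-HFD), 0.42 (diet in WT livers), 0.25 (diet in KO livers) and -0.15 (interaction), and the share of calls that were higher from 52.9% to 30.3%, from 50.7% to 85.3%, from 53.9% to 85.9% and from 59.6% to 40.9%. Relative to that median the 8 genes kept their values, for instance Slc2a2 at -0.72 and Gys2 at -0.57 for the diet in WT livers, where their calls were lost on the unshifted scale (adjusted p = 0.0681 and 0.471). The same scale took the calls of Pfkl (-0.09, adjusted p = 0.497) and Tkt (0.103) for the diet in WT livers, Tkfc (0.0518) and Pdha1 (0.164) for the diet in KO livers, Pfkm (0.128) and Sord (0.0565) in KO against WT on CDA-HFD and Gbe1 (0.121) in the interaction, and gave Slc2a1 one (0.51, 0.0318) for the diet in WT livers. G6pc for the diet in KO livers lost its call with all 20 livers (0.0522), as did Ppp1r3c in KO against WT on CDA-HFD (0.0951). Pklr in KO against WT on CDA-HFD passed with DESeq2 (adjusted p = 0.0238), with all 20 livers (0.032) and without WT liver 2 (0.0368), and Gbe1 in the interaction did not pass in 22 of 26.

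Replicate numbers did not pair the livers. Correlations of same-numbered livers ran from -0.305 to 0.323 on WD, -0.392 to 0.363 on CDA-HFD, -0.173 to 0.362 for the diet in WT and -0.171 to 0.374 in KO livers. With the number as a block, Gys2 passed in KO against WT on CDA-HFD (adjusted p = 0.0202), and G6pc and Pck1 passed for the diet in WT livers (0.00534 and 0.025).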
